A study of Gallus gallus with 16 samples.

Results

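The genes described here belong to blood vessels and to oxygen transport, and were followed through every pineal pool of a light experiment in chicks. The 7 genes were chosen by name, with earlier results of these data known. A probe belonged to the set when the platform annotation gave it the symbol KDR, PROCR, EGFL7, RGS5, HBBA, MB or TFRC. Each of the 7 genes had 1 probe, so 7 of the 15609 probes and 7 of the 12532 genes tested were members, and all 7 passed the filter on missing values. With 1 probe per gene, no second probe was at hand to check a value.

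Blood vessels are tubes of endothelial cells wrapped by pericytes and smooth muscle cells. Vascular endothelial growth factor acts on the endothelium through the receptor KDR, PROCR binds the anticoagulant protein C at the endothelial surface, and EGFL7 is secreted by endothelial cells during vessel growth. RGS5 dampens G protein signalling and marks pericytes in mice. HBBA is a beta chain of adult chicken haemoglobin, and avian red cells keep their nucleus in the circulation. MB, myoglobin, stores oxygen in heart and skeletal muscle. TFRC takes up iron bound to transferrin and is abundant in young red cells and in brain capillaries. The avian pineal gland, which keeps its own clock and senses light directly, is richly supplied with blood.

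All birds were male Rhode Island Red chicks 1 week old, and each of the 16 RNA samples came from 5 to 6 pooled pineal glands. Birds were assigned at random to a light group, of 25 birds each, or to controls kept in 12 h of light and 12 h of darkness, with lights-on at ZT0. In paradigm 3, the light group was kept throughout in a long day and glands were taken at ZT14 (2 long-day pools, 2 dark pools). The design puts that day at 15 h of light, with 9 h of darkness, while the sample titles say 17 h and 7 h. In paradigm 2, the light group received light from ZT12 to ZT14 and glands were taken at ZT14 (2 early-night light pools, 2 dark pools). In paradigm 1, it received light from ZT22 to ZT24 and glands were taken at ZT0 (4 late-night light pools, 4 dark pools). The dark pools of paradigm 3 are numbered 3 and 4 in the labels, those of paradigm 2 are numbered 1 and 2, and both sets were controls killed at ZT14.

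Every value is a deposited log ratio, taken as log2, between a pineal pool and a reference made of all 16 pools. A ratio compares 1 gene between pools and says nothing of how abundant the gene is next to another gene, nor whether a cell type is present. The numerator is not named in the labels, so higher means a higher deposited ratio, and all signs turn together under the opposite numerator. A pool over a reference that holds it cannot pass 4 on this scale without error, and 118 values lay above 4 and 73 below the negative of that bound. Without paradigm 3 those counts were 20 and 29, which left the direction unsettled. The 4 arrays of paradigm 3 stood apart, with an SD over probes of 0.820 to 1.08, against 0.248 to 0.546 on the other 2 paradigms' arrays. They correlated with the arrays of paradigm 1 at -0.290 at the lowest over probes and -0.306 over genes. In pooled glands, fewer cells of a type and less RNA per cell cannot be told apart.

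**Figure D1:**
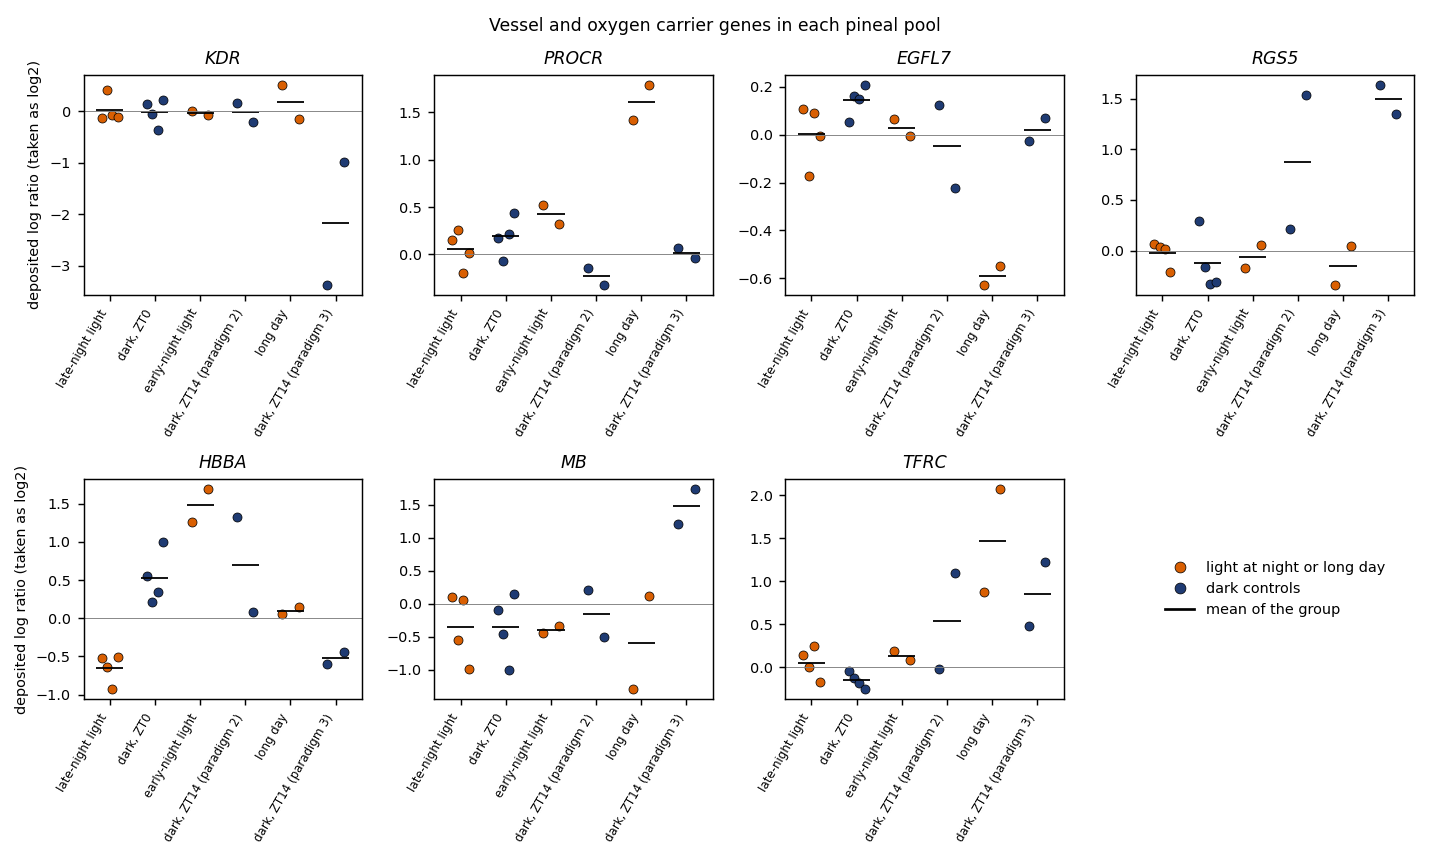
The plot shows the deposited log ratio (taken as log2) of each of the 7 genes in each of the 16 pools. Points are pools, orange for light groups and blue for dark controls, lines are group means, and each panel has its own axis. KDR is low in both dark pools of paradigm 3, PROCR is high in both long-day pools, and HBBA separates the late-night light pools from their controls.

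Among the 3 endothelial genes, KDR set apart the dark pools of paradigm 3, and PROCR and EGFL7 the long-day pools, in opposite directions. KDR had ratios of 0.52 and -0.15 in the long-day pools, against -3.37 and -0.98 in their dark controls. It had -0.01 and -0.07 in early-night light, against 0.17 and -0.21 in darkness. In late-night light it had -0.14, 0.40, -0.07 and -0.12, against 0.14, -0.05, -0.37 and 0.22 in darkness. Both dark pools of paradigm 3 were thus lower than the 14 other pools, and the pair differed between themselves by more than any other pair of KDR values in a group. In the order of the 6 group means, the top 5 neighbours differed by less than 2 standard errors, and the step down to the dark pools of paradigm 3 was 2.14 ± 0.53. KDR covered a range of 3.88 over the pools, wider than that of 95.4% of genes.

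PROCR behaved otherwise. Its ratios were 1.42 and 1.79 in the long-day pools, against 0.07 and -0.03 in their dark controls. They were 0.53 and 0.33 in early-night light, against -0.14 and -0.32 in darkness. In late-night light they were 0.15, 0.26, -0.20 and 0.02, against 0.17, -0.07, 0.22 and 0.44 in darkness. The long-day pools were the highest of all 16, the early-night light pools lay above both ZT14 dark groups, and the late-night groups overlapped. The long-day mean exceeded the next, that of early-night light, by 1.18 ± 0.22, while no other neighbours in the order differed by 2 standard errors.

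EGFL7 hardly varied outside 1 group. It had -0.63 and -0.55 in the long-day pools, against -0.03 and 0.07 in their dark controls. It had 0.07 and -0.01 in early-night light, against 0.12 and -0.22 in darkness. In late-night light it had 0.11, -0.17, 0.09 and -0.01, against 0.05, 0.16, 0.15 and 0.21 in darkness. The long-day pools were the lowest 2 of the 16, below the next group mean by 0.54 ± 0.17. Between the long-day pools and their dark controls, 25.3% of all genes differed by as much as EGFL7. The residual SD of EGFL7, 0.115, was smaller than that of all but 2.19% of genes.

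RGS5, which marks pericytes in mice, separated dark from light pools at ZT14. It had -0.34 and 0.04 in the long-day pools, against 1.64 and 1.35 in their dark controls. It had -0.17 and 0.05 in early-night light, against 0.22 and 1.53 in darkness. In late-night light it had 0.06, 0.04, 0.01 and -0.21, against 0.30, -0.16, -0.33 and -0.31 in darkness. Of the 4 ZT14 dark pools 3 lay above 1.3, while dark pool 1 of paradigm 2 lay within the range of the ZT0 dark pools. The 2 ZT14 dark means did not differ by 2 standard errors, and neither did any neighbours among the 4 lower means.

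The oxygen carriers HBBA and MB did not share a pattern. HBBA had 0.05 and 0.15 in the long-day pools, against -0.60 and -0.45 in their dark controls. It had 1.26 and 1.70 in early-night light, against 1.32 and 0.08 in darkness. In late-night light it had -0.52, -0.64, -0.93 and -0.50, against 0.55, 0.22, 0.34 and 1.01 in darkness. The 4 late-night light pools lay below all 4 of their controls, and 3 of the 4 pools of paradigm 2 were the highest of all. MB had -1.29 and 0.11 in the long-day pools, against 1.21 and 1.74 in their dark controls. It had -0.45 and -0.33 in early-night light, against 0.20 and -0.50 in darkness. In late-night light it had 0.10, -0.55, 0.06 and -0.99, against -0.09, -0.46, -1.005 and 0.14 in darkness. Both dark pools of paradigm 3 were higher for MB than the 14 other pools, and the other 5 group means did not differ between neighbours by 2 standard errors.

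TFRC, the iron uptake receptor, had its 2 highest group means in paradigm 3, in light and in darkness. It had 0.87 and 2.07 in the long-day pools, against 0.48 and 1.22 in their dark controls. It had 0.19 and 0.08 in early-night light, against -0.02 and 1.09 in darkness. In late-night light it had 0.14, 0.00, 0.25 and -0.17, against -0.04, -0.12, -0.18 and -0.25 in darkness. The 4 pools of paradigm 3 overlapped with the dark pools of paradigm 2, and neighbouring group means differed nowhere by 2 standard errors. Dark pool 2 of paradigm 2 stood above its partner for both RGS5 and TFRC and below it for HBBA.

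The long day was compared with its own dark controls at ZT14. Counted from lights-on at ZT0, a day of 15 or 17 h of light was lit at ZT14, when controls were in darkness. A history of long days and light at sampling therefore cannot be told apart here. KDR was higher in the long-day pools than in their dark controls by 2.36 ± 0.53, a fold of 5.12 (adjusted p = 0.0352). PROCR was higher by 1.59 ± 0.22, a fold of 3.01 (adjusted p = 0.0036). Here ± is the standard error of limma's fit, with 2 pools a group, and p is from limma's test. RGS5 was lower by 1.64 ± 0.34 and MB by 2.06 ± 0.49, folds of 3.12 and 4.18 (adjusted p = 0.0244 and 0.0408). For KDR and MB, the dark pools of paradigm 3 were the group that stood apart from all others, not the long-day pools. The test called 4 of the 7 genes, while it called 2.94% of the 12532 genes. Since the 7 genes were chosen with earlier results of these data known, setting these shares side by side is no test. EGFL7 had -0.61 ± 0.17 (adjusted p = 0.0746), HBBA 0.62 ± 0.35 (adjusted p = 0.390) and TFRC 0.62 ± 0.39 (adjusted p = 0.454). The groups did not overlap for 6 of the 7 genes, all but TFRC, and for 35.8% of all genes.

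**Figure D2:**
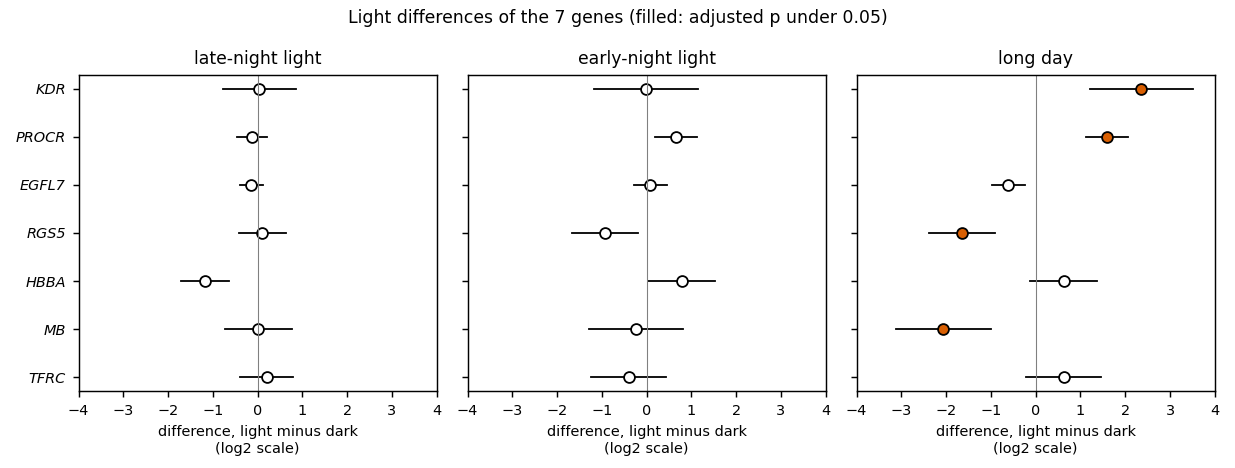
Differences of light minus dark pools (log2 scale, horizontal axis) are shown for the 7 genes in the 3 paradigms, with 95% confidence intervals as bars. Filled points passed an adjusted p of 0.05 in limma's test over all genes: KDR, PROCR, RGS5 and MB in the long day, and no gene in the other 2 panels.

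The 4 long-day calls rested on settings and pools to unequal degrees. All 4 were lost with array weights, which give the arrays of paradigm 3 weights of 0.308 to 0.473, and with quantile normalization, scaling of arrays to 1 SD or a fit of the 4 compared arrays alone. After quantile normalization KDR had 1.22 and MB -1.08, against 2.36 and -2.06 as deposited, so their folds above depend on this choice. PROCR kept its call without any 1 of the 4 pools, at 1.41 to 1.78. Such a fit leaves a lone pool in 1 group, assumed to vary like the other groups, so a kept call is weak evidence. KDR had 1.17 (adjusted p = 0.0532) without dark pool 3, 3.55 without dark pool 4 and had 2.02 (adjusted p = 0.109) without long-day pool 1. MB had -1.36 (adjusted p = 0.175) without long-day pool 1 and -1.80 (adjusted p = 0.0853) without dark pool 4, and RGS5 had -1.45 (adjusted p = 0.0756) without long-day pool 1. Against all 4 ZT14 dark pools, KDR had 1.28 (adjusted p = 0.155) and MB -1.25 (adjusted p = 0.130), and neither passed.

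**Figure D3:**
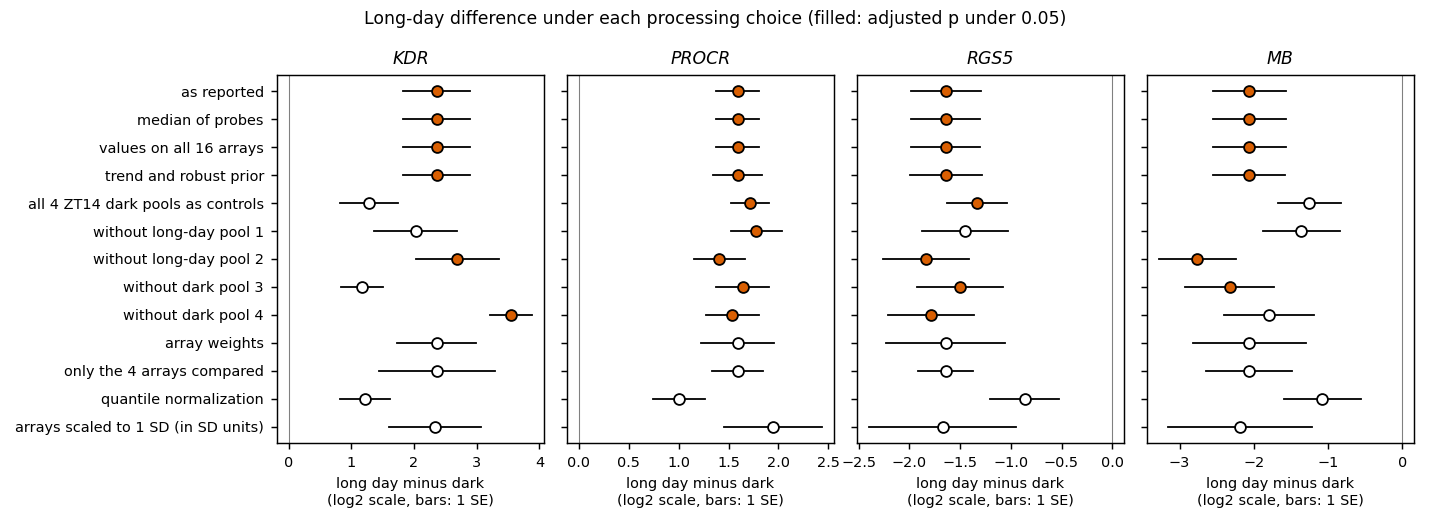
Each row is a processing choice and each panel 1 of the 4 genes called in the long day. Points give the difference of long-day minus dark pools on the log2 scale (in SD units for scaled arrays), bars are 1 standard error, and filled points have an adjusted p under 0.05. PROCR stays filled without any 1 pool, in fits that leave a lone pool in 1 group. All 4 genes are open in the lowest 4 rows.

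Further vessel and red cell genes held no call in the long day. Of 15 further endothelial genes 10 had a positive difference and 0 passed the test (median 0.08, against -0.01 over all genes). LYVE1, a hyaluronan receptor of lymphatic endothelium, had the smallest p, at 1.24 ± 0.48 (adjusted p = 0.183). Of 12 further pericyte and smooth muscle genes 7 were negative and 0 passed (median -0.08), with the myosin light chain MYL9 at -0.93 ± 0.24 (adjusted p = 0.0514). Of 15 genes that signal to vessels 10 were negative and 0 passed (median -0.12), and of 12 genes of protein C, clotting and fibrinolysis 7 were negative and 0 passed (median -0.11). The 7 other red cell genes had a median of -0.06 with 0 called.

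The iron genes held 2 calls, in a comparison that called 2.94% of all genes. The long day called 0 genes with array weights, quantile normalization, scaled arrays or the compared arrays alone. Every call named in this paragraph was thus lost under those choices. BMP6, which in mice signals iron load from liver endothelium, was higher by 1.69 ± 0.32 (adjusted p = 0.0150). FLVCR2, a membrane transporter, was higher by 1.44 ± 0.36 (adjusted p = 0.0497). The other 19 of the 21 iron genes did not pass, and the median of the 21 was -0.18. Of 17 oxygen sensing genes 0 passed (median 0.08). Of 5 thrombocyte genes, the integrin ITGB3 was lower by 1.29 ± 0.32 (adjusted p = 0.0452). The 11 other muscle genes, set beside MB, had pool means of 0.62 and 0.20 in the long day, against 0.70 and 0.36 in darkness, with 0 called and a median difference of -0.18. Their part in the MB result was not tested. Of 8 pinealocyte genes NEUROD1, a transcription factor, was lower by 1.67 ± 0.41 (adjusted p = 0.0452). Of 12 macrophage and 14 lymphocyte genes 0 passed, with medians of -0.01 each.

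Early-night light, which extended the light period from ZT12 to ZT14, changed none of the 7 genes by limma's test, and 1 of 12532 genes passed (0.00798%). At an unadjusted p under 0.05 there were 3 members, against 4.20% of all genes: PROCR with 0.66 ± 0.22, RGS5 with -0.93 ± 0.34 and HBBA with 0.78 ± 0.35 (adjusted p = 0.932 for PROCR and 1.00 for RGS5 and HBBA). Groups of 2 pools did not overlap for PROCR and RGS5, 2 of the 7 genes, and for 35.2% of all genes. KDR had -0.01 ± 0.53, EGFL7 0.08 ± 0.17, MB -0.24 ± 0.49 and TFRC -0.40 ± 0.39. The RGS5 difference was -0.28 without dark pool 2 and -1.59 (adjusted p = 0.0346) without dark pool 1. The HBBA difference was 0.16 without dark pool 2 and 1.40 without dark pool 1. Against all 4 ZT14 dark pools, RGS5 had -1.25 (adjusted p = 0.0416) and HBBA 1.39 (adjusted p = 0.0292). That setting called 392 of all genes, and it adds the dark pools of paradigm 3. Those differed from the dark pools of paradigm 2 by -1.23 ± 0.35 for HBBA and 0.62 ± 0.34 for RGS5. Light and paradigm cannot be told apart in it.

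Averaged over both ZT14 paradigms, PROCR was higher in the 4 light pools than in the 4 dark pools by 1.12 ± 0.15 (limma's adjusted p = 0.0208). RGS5 was lower by 1.29 ± 0.24 (adjusted p = 0.0457). These were 2 of 7 members, which were chosen with earlier results of these data known, against 0.295% of all genes called. The same 2 genes had no overlap between the 4 light and the 4 dark pools, as had 1.92% of all genes. This average shares its pools with the long-day and early-night comparisons, so it is no separate evidence. Both calls were lost with array weights, a trended robust prior, quantile normalization, scaled arrays or the compared arrays alone (adjusted p = 0.0613 to 0.552 for PROCR and 0.0618 to 0.714 for RGS5). PROCR also lost its call without early-night light pool 1 (1.07, adjusted p = 0.0567). RGS5 also lost it without long-day pool 1 (-1.19, adjusted p = 0.0620), without early-night light pool 1 (-1.23, adjusted p = 0.141) or pool 2 (-1.35, adjusted p = 0.112), and without early-night dark pool 2 (-0.96, adjusted p = 0.0950). The long-day and early-night light differences did not pass the test of the difference for any member over all pools: KDR had 2.37 ± 0.76 (adjusted p = 0.265), PROCR 0.93 ± 0.31 (adjusted p = 0.274) and MB -1.82 ± 0.69 (adjusted p = 0.357). In that test 0.0239% of genes were called. The KDR value was 1.18 (adjusted p = 0.182) without paradigm 3 dark pool 3 and 3.56, which passed (adjusted p = 0.00115), without dark pool 4.

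In early-night light the 15 further endothelial genes had a median of 0.26, with 12 positive, against 0.00 over all genes, and 0 passed. The 2 with the smallest p had opposite signs: CD34, a surface protein of endothelium, had 0.66 ± 0.27 and PECAM1, an adhesion protein of the same cells, -0.59 ± 0.24. The pool means of the 15 genes were -0.01 and -0.01 in light, against -0.22 and -0.22 in darkness. The heme oxygenase HMOX1 had 0.63 ± 0.24. Pericyte genes had a median of -0.03 and red cell genes one of 0.07, with 0 called in each.

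Late-night light, which asks what light does just before dawn, changed no member by limma's test, and 0 of 12532 genes passed (0%), while 527 had an unadjusted p under 0.05 (4.21%). HBBA was the 1 member under that unadjusted level, with -1.18 ± 0.25, a fold of 2.26 lower (4 pools each, adjusted p = 0.642). Its groups did not overlap, as for 4.59% of all genes, and 0.239% of genes had a difference as large. The 6 other members overlapped: PROCR had -0.13 ± 0.15, EGFL7 -0.14 ± 0.12, TFRC 0.20 ± 0.27 and RGS5 0.10 ± 0.24. KDR had 0.03 ± 0.38 and MB 0.01 ± 0.35.

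The HBBA difference was also taken within each slide series, the 2 ranges of array numbers. It was -1.08 ± 0.33 in the first series (3 light, 2 dark pools) and -1.18 ± 0.45 in the second (1 light, 2 dark pools). With 1 light pool in the second series, its standard error assumes that this pool varies like the other groups. It lay between -1.02 and -1.28 without any 1 pool and was -1.64 (adjusted p = 0.0670) after quantile normalization. The late-night difference minus the early-night one was -1.95 ± 0.43 (adjusted p = 0.268), in a test that called 0.0399% of genes. It was -2.58 (adjusted p = 0.0195) without early-night dark pool 1 and -1.33 (adjusted p = 0.708) without early-night dark pool 2.

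Genes of other blood cells were set beside HBBA. Among 7 other red cell genes 6 were negative (median -0.16, against 0.00 over all genes, of which 49.1% were positive). The transcription factor LMO2 had -0.41 ± 0.17 and the ammonium channel RHAG -0.28 ± 0.15. Their pool means were 0.11, 0.09, -0.21 and 0.24 in light, against 0.18, 0.06, 0.16 and 0.36 in darkness, which overlapped.

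**Figure D4:**
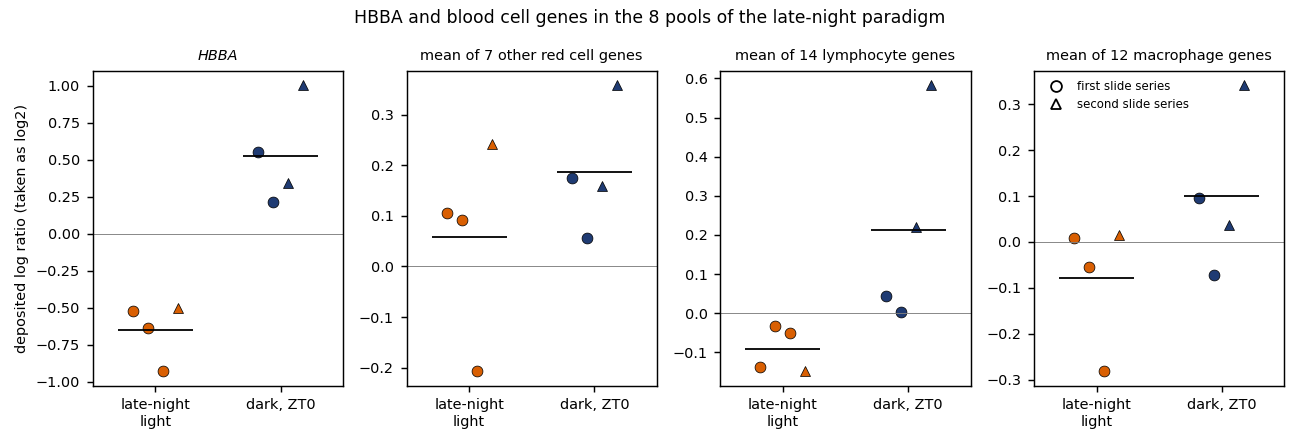
For the 8 pools of the late-night paradigm, the deposited log ratio (taken as log2) of HBBA and the mean ratios of 7 other red cell genes, 14 lymphocyte genes and 12 macrophage genes are shown, with each panel on its own axis. Points are pools (circles for the first slide series, triangles for the second), lines are group means. HBBA and the lymphocyte mean separate the groups, and the red cell and macrophage means do not.

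Of 14 lymphocyte genes 11 were negative (median -0.18), and their pool means were -0.14, -0.03, -0.05 and -0.15 in light, against 0.04, 0.00, 0.22 and 0.58 in darkness. The T cell ligand CD40LG had -1.12 ± 0.26 (adjusted p = 0.642) and the B cell receptor subunit CD79B -0.96 ± 0.33 (adjusted p = 1.00). All 12 macrophage genes were negative (median -0.15), with lysozyme, LYZ, at -0.53 ± 0.20 (adjusted p = 1.00), and their pool means overlapped. None of these genes passed, no p is given for a list, and their part in the HBBA difference was not tested. Endothelial genes had a median of -0.06 with 10 of 15 negative, and TEK, the angiopoietin receptor, had -0.31 ± 0.12. Pericyte genes had a median of -0.04, signals to vessels 0.03, iron genes 0.02, oxygen sensing genes 0.03 and muscle genes -0.08, with 0 called in each.

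In darkness, RGS5 and TFRC were lower at ZT0 than at ZT14. The difference was -1.31 ± 0.24 for RGS5 (a fold of 2.48, adjusted p = 0.0035) and -0.84 ± 0.27 for TFRC (a fold of 1.79, adjusted p = 0.0483). The comparison set 4 ZT0 dark pools against 4 ZT14 dark pools, and it called 19.0% of all genes, so 2 of 7 members is near the background. The ZT0 pools lay below all ZT14 pools for TFRC alone among the 7, while 12.9% of all genes did not overlap. That gap was narrow, with the highest ZT0 pool at -0.036 and the lowest ZT14 pool at -0.019. KDR had 1.09 ± 0.38 (adjusted p = 0.0605), MB -1.01 ± 0.35 (adjusted p = 0.0567), HBBA 0.44 ± 0.25, PROCR 0.30 ± 0.15 and EGFL7 0.16 ± 0.12. KDR passed without paradigm 3 dark pool 4 (1.68, adjusted p = 0.000339), and HBBA without early-night dark pool 1 (0.75, adjusted p = 0.0320). Time of day and paradigm cannot be told apart here, since ZT0 pools came from paradigm 1 and ZT14 pools from paradigms 2 and 3.

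Splitting the ZT14 controls by paradigm divided the members. Against paradigm 2 alone, KDR had 0.01 ± 0.46, HBBA -0.17 ± 0.30 and MB -0.20 ± 0.43. Against paradigm 3 alone, they had 2.16 ± 0.46 (adjusted p = 0.0030), 1.05 ± 0.30 (adjusted p = 0.0161) and -1.83 ± 0.43 (adjusted p = 0.0050). RGS5 had the same direction against both, -0.999 ± 0.30 (adjusted p = 0.322) against paradigm 2 and -1.62 ± 0.30 (adjusted p = 0.0012) against paradigm 3. TFRC had -0.68 ± 0.34 (adjusted p = 0.510) and -0.99 ± 0.34 (adjusted p = 0.0355). Against paradigm 2, both differences rested largely on dark pool 2. RGS5 had 0.22 in dark pool 1 and 1.53 in pool 2, and TFRC had -0.02 and 1.09. The RGS5 call was kept under 17 of 19 alternatives and the TFRC call under 5 of 19. The alternatives include probe medians and complete values, which could not change a member's difference. The TFRC call was lost without any 1 of the 4 ZT0 pools (adjusted p = 0.0735 to 0.112), and the difference was -0.56 without early-night dark pool 2 and -0.65 without paradigm 3 dark pool 4. The call was also lost with array weights, a trended robust prior, quantile normalization, scaled arrays, the compared arrays alone or a slide term (adjusted p = 0.0592 to 0.166).

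**Figure D5:**
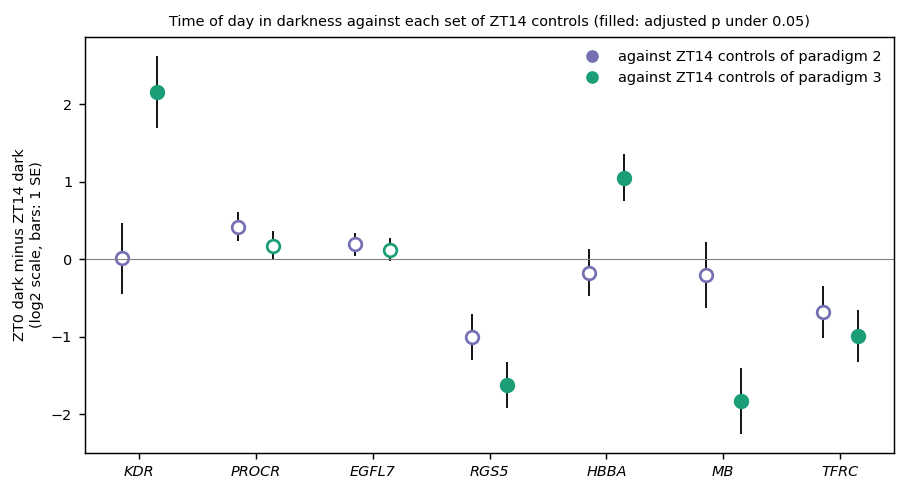
For each gene, the ZT0 dark pools minus the ZT14 dark pools (log2 scale) are shown against the controls of paradigm 2 (purple) and of paradigm 3 (green), with bars of 1 standard error and filled points for an adjusted p under 0.05. RGS5 and TFRC lie below 0 against both, with open points against paradigm 2. KDR, HBBA and MB lie near 0 against paradigm 2 and away from it against paradigm 3.

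The dark controls of the 2 ZT14 paradigms had the same labelled treatment, and yet differed for 20.6% of all genes. Paradigm 3 was lower than paradigm 2 for KDR and HBBA, with differences of -2.15 ± 0.53 (adjusted p = 0.0133) and -1.23 ± 0.35 (adjusted p = 0.0249). It was higher for MB, with 1.62 ± 0.49 (adjusted p = 0.0322). RGS5 had 0.62 ± 0.34, TFRC 0.31 ± 0.39, PROCR 0.25 ± 0.22 and EGFL7 0.07 ± 0.17. The test called 3 of the 7 members, which were chosen with earlier results of these data known, and 20.6% of all genes. Groups did not overlap for 4 of 7 members and for 57.8% of all genes, so the overlap count does not set the members apart. Without paradigm 3 dark pool 4, KDR had -3.34, and without early-night dark pool 2, HBBA had -1.85. Without paradigm 3 dark pool 3, KDR had -0.96 (adjusted p = 0.0669) and HBBA -1.15 (adjusted p = 0.0904), and without pool 4 MB had 1.36 (adjusted p = 0.123). Without early-night dark pool 1, HBBA had -0.61 (adjusted p = 0.228) and KDR -1.96 (adjusted p = 0.0749). Without early-night dark pool 2, KDR had -2.34 (adjusted p = 0.0509) and MB 1.27 (adjusted p = 0.207), while RGS5 then passed at 1.28 (adjusted p = 0.0201). All 3 calls were lost with quantile normalization, scaled arrays or the compared arrays alone (adjusted p = 0.138 to 0.426). HBBA and MB also lost theirs with array weights. Each of the 3 calls was kept under 5 of 11 alternatives. These include probe medians and complete values, which could not change a member's difference.

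Related genes also passed in the same 2 dark comparisons, which share the ZT14 dark pools. Those comparisons called 19.0% and 20.6% of all genes, so calls are common in any list. Calls in the lists here and below were not tested against those shares, and not every call is named. The ZT0 comparison called 2385 genes, but 4 against the ZT14 controls of paradigm 2 alone and 4265 against those of paradigm 3 alone. The list genes were not split in this way, so time of day and paradigm cannot be told apart in their ZT0 values. Differences are ZT0 minus ZT14, or paradigm 3 minus paradigm 2, and each gene named passed limma's test. Of the 15 further endothelial genes, the adrenomedullin receptor CALCRL had 1.57 ± 0.30 at ZT0 and -1.42 ± 0.43 in paradigm 3. LYVE1 had -1.13 ± 0.34 at ZT0 and 1.88 ± 0.48 in paradigm 3, where the lipid transporter MFSD2A had 1.10 ± 0.24 and the transcription factor SOX17 0.71 ± 0.18. In all, 1 endothelial gene was higher and 1 lower at ZT0, and 4 were higher and 1 lower in paradigm 3. Of 12 pericyte and smooth muscle genes, MYL9 and its kinase MYLK had -0.90 ± 0.17 and -0.64 ± 0.15 at ZT0. Of 15 signals to vessels, the Notch ligand DLL4 and the Notch target HEY2 had -0.91 ± 0.25 and -0.64 ± 0.21 at ZT0. Of 12 clotting genes, the thrombin receptor F2R had -1.25 ± 0.26, the clot stabilising F13A1 -1.42 ± 0.30 and F5, a cofactor that protein C inactivates, -0.64 ± 0.17 at ZT0. In paradigm 3, the clotting cofactor F8, F2R and F5 had 1.22 ± 0.26, 1.68 ± 0.37 and 1.07 ± 0.24.

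Of the 7 red cell genes, BPGM, which in mammals makes a regulator of haemoglobin's oxygen affinity, had 1.44 ± 0.27 at ZT0 and RHAG 0.63 ± 0.15. Both were lower in paradigm 3 than in paradigm 2, at -1.43 ± 0.38 and -0.79 ± 0.21. Of the 21 iron genes, 4 were higher and 1 lower at ZT0, and 3 were higher and 4 lower in paradigm 3 than in paradigm 2. At ZT0 these included the following. BMP6 had 1.12 ± 0.23, NCOA4, which delivers ferritin for breakdown, 1.20 ± 0.28, the heme enzyme ALAD 0.91 ± 0.22 and the ferritin heavy chain FTH1 -1.26 ± 0.28. Of the 17 oxygen sensing genes, the hypoxia factor EPAS1 and the oxygen sensor EGLN3 had 1.10 ± 0.30 and 1.24 ± 0.37 at ZT0. Of the 11 muscle genes set beside MB, TNNT3, TTN and TNNI1 had -1.17 ± 0.21, -0.81 ± 0.19 and -1.36 ± 0.44 at ZT0, and 3 were higher in paradigm 3 than in paradigm 2. Their part in the MB values was not tested. Of the 5 thrombocyte genes, ITGB3 and GP9 had -1.10 ± 0.22 and -1.21 ± 0.34 at ZT0. Among macrophage and lymphocyte genes 0 passed in either comparison.

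The genes most like each member over the 16 pools are given as a description, since all arrays share the reference and the groups differ. Among 6641 genes with a symbol, FAIM, SVOP and BMP6 tracked KDR (r = 0.95, 0.93 and 0.93), but without the arrays of paradigm 3 those values were -0.29, -0.03 and 0.05. MICU3 tracked RGS5 (r = 0.94, and 0.91 without paradigm 3), followed by UBQLN1 (0.88) and RNF146 (0.86). NDUFB2 tracked HBBA (r = 0.89, and 0.88 without paradigm 3), followed by TIMP3 (0.86) and IQGAP3 (0.80). After group means were removed, MICU3 kept r = 0.81 with RGS5, while NDUFB2 had r = 0.30 with HBBA. Outside paradigm 3, RGS5 had 1.53 in dark pool 2 of paradigm 2 and at most 0.295 in any other pool. Whether that pool alone carried the RGS5 correlations was not tested.

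PROCR was tracked by NRDE2, SNAI2 and C16orf59 (r = 0.89, 0.88 and 0.88), of which SNAI2 had r = 0.59 within groups and NRDE2 -0.10. EGFL7 was tracked by UBTD2, HAVCR1 and FTL (r = 0.90, 0.88 and 0.87), and MB by CASR, DDX60 and UPK3A (r = 0.90, 0.88 and 0.87). TFRC was tracked by TMEM179, PCDH1 and TPCN2 (r = 0.93, 0.92 and 0.91). Among the members, RGS5 and TFRC had r = 0.91 over the 12 pools without paradigm 3 and 0.43 over all 16, and dark pool 2 of paradigm 2 was the highest of the 12 for both. KDR and PROCR had r = 0.21, KDR and EGFL7 -0.12, and PROCR and EGFL7 -0.75 over 16 pools and 0.26 without paradigm 3.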

How the data were processed

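Pineal RNA from 16 pools was hybridised to two-channel cDNA arrays. Per the labels' protocols, amplified pool RNA was in the Cy3 channel and a reference of equal amounts of all 16 pools in the Cy5 channel, with no dye swap. The values are log ratios as deposited by the authors, taken as log2; their base, numerator, background correction and normalization are details not given in the sources used. Array medians lay near 0, and no intensities were used, so the number of arrays limits the precision.

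From the 15769 probes, 160 control spots were left out. A gene was the mean of its probes by platform annotation, 5872 unnamed probes stood for themselves, and a gene needed a value on 2 arrays of every group, which left 12532 of 12691. The 6 groups were compared with limma 3.58.1 (R 4.3.3), using all 16 arrays, 10 residual and 3.33 prior degrees of freedom. A gene was called where its p, adjusted by Benjamini and Hochberg over all genes of the comparison, was under 0.05. The fit was tested on simulated data, drawn with 1 spread per gene in all 6 groups. That test could not show what unequal spread between groups does to the standard errors. Since pools were made of different glands, a p-value reflects pool-to-pool spread. That spread was a shared estimate for each gene over all 6 groups. Residual SDs were 0.379 to 0.471 on the arrays of paradigm 3, against 0.224 to 0.371 on the others. Standard errors of comparisons with paradigm 3 may thus be too small, and those of the other comparisons too large for some genes. The late-night standard error of KDR was 0.38 with all arrays and 0.17 without paradigm 3. That of HBBA in early-night light went the other way, at 0.35 with all arrays and 0.44 over the compared arrays alone. Over the compared arrays alone, KDR had 2.36 ± 0.93 in the long day. The 7 genes and the 12 gene lists were chosen with earlier results of these data known. Named list genes are those called, at most the 4 with the smallest p, or the 2 with the smallest p where none was called. For each member the 3 genes with the highest Pearson r were named. The alternatives were array weights, a trended robust prior, quantile normalization, scaling, the compared arrays alone, probe medians, complete values, a pool-number block, slide series, all ZT14 controls together and leaving out pools. Leaving out paradigm 3 and splitting the ZT14 controls were added after seeing the data. No sequences are shown.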

Additional observations from a re-analysis of the deposited data

Results flagged for a closer look

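KDR had a ratio of 0.40 in late-night light pool 2, far from the -0.14, -0.07 and -0.12 of the other 3 pools of that group relative to the group's range. Of 14 groups of 4 pools looked at among the 7 genes, 1 held such a pool, and chance flags about 1 in 20 groups. No member passed a test of the difference between light effects.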

How the results depend on the processing

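For the 7 genes, 56 differences were recomputed under 889 alternatives. Of these, 762 kept their direction and side of the threshold, 72 lost a call, 14 gained one, 0 reversed, and 41 turned sign with no call on either side. Most of the 762 were uncalled differences that stayed uncalled, and only a called difference can lose a call. In the long day, the calls of KDR and MB were kept under 5 of 12 alternatives, RGS5 under 7 and PROCR under 8. At ZT0 against ZT14 in darkness, RGS5 kept its call under 17 of 19 and TFRC under 5 of 19. Each member had 1 probe and a value on every array, so probe medians and complete values could not change its difference. Counts of genes called moved more. Late-night light called 0 genes, 2 with array weights, 3 after quantile normalization, 2 with scaled arrays, 27 within the second slide series and 0 to 2 without any 1 pool. Early-night light called 1, 5 with array weights, 0 with a trended prior, 10 after quantile normalization, 6 scaled, 0 over the compared arrays, 392 against all ZT14 controls, 3 without paradigm 3 and 2 to 65 without any 1 pool. With pool number as a replicate block it called 0, as did late-night light, and the block changed no member's call. Deviations of same-numbered pools correlated at -0.000165 to 0.309 in paradigm 1 and 0.120 in paradigm 2, so the numbers were not taken to pair pools. The long day called 369, but 0 with array weights, quantile normalization, scaling or the compared arrays, and 564 to 1194 without any 1 pool. Light at ZT14 called 37, 2 with array weights, 1 with a trended prior, 0 with quantile normalization, scaling or the compared arrays, and 8 to 638 without any 1 pool. ZT0 against ZT14 called 2385, 1528 with array weights, 888 after quantile normalization, 921 scaled, 1185 with a slide term, 8 without paradigm 3, 4 against paradigm 2 controls, 4265 against paradigm 3 controls and 1448 to 3202 without any 1 pool. The ZT14 controls differed for 2583 genes, 772 with array weights, 22 after quantile normalization, 29 scaled, 0 over the compared arrays and 1120 to 3229 without any 1 pool. Late-night minus early-night light called 5, 0 with a trended prior, 2 with a slide term and 0 to 45 without any 1 pool. Long day minus early-night light called 3, 0 with array weights, quantile normalization, scaling or the compared arrays, 1 with a trended prior and 5 to 389 without any 1 pool. Without 1 pool, a group of 2 holds a lone sample, assumed to vary like the other groups.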
